A study of Mus musculus with 2 samples.

Results

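Translation initiation factors were read in 2 bone marrow cultures, and most of their transcripts were somewhat lower in the culture given silncMDSC. The members were all genes whose symbol begins with Eif and a digit, apart from the eIF2 kinases (Eif2ak) and the eIF2 gamma subunit (Eif2s3), and each was read from a probe set with only that symbol in the platform annotation. The rule found 41 members among 18193 genes, and 40 of them were analysed among 11920 genes above the floor. The floor is an intensity of 78.4, the median over the probe sets of the 2 arrays together, and the higher of a gene's 2 values had to reach it. The genes Eif1, Eif2s1, Eif3g and Eif4g1 were not analysed here. Only Eif4a3, a helicase that marks exon junctions, was below the floor, with 35.1 on the silncMDSC array and 33.2 on the control array. Eif5a2 passed narrowly, with 85.8 in silncMDSC and 89.2 in control.

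Both cultures were started from fresh bone marrow cells of C57BL/6 mice and grown for 4 days in medium with IL6 and GM-CSF, cytokines that favour MDSCs, a mixed population of immature myeloid cells that restrain T cells. One was transfected with silncMDSC, an siRNA named for a long noncoding RNA, which the study's methods give as lnc-C/EBPβ, and the other with a control siRNA. Each was read on 1 Affymetrix Mouse Genome 430 2.0 array, on which a probe set is a group of short probes for 1 transcript. The knockdown itself was not analysed here, and the labels do not say how many mice gave the marrow. With 1 array per group there is no replicate check and no test, so every difference below describes these 2 arrays. Differences are log2(intensity + 1) in silncMDSC minus the same in control, and folds are on that scale, which understates the folds of dim probe sets.

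Initiation factors bring the initiator tRNA, the small ribosomal subunit and the mRNA together and then release the factors so that the large subunit can join. The eIF1, eIF1A, eIF2, eIF3 and eIF5 proteins assemble on the small subunit, eIF2B recharges eIF2 with GTP, and the cap-binding eIF4E, the scaffold eIF4G and the helicase eIF4A recruit the mRNA. The 4E-binding proteins hold eIF4E back when growth signalling through mTORC1 is low, and phosphorylation of eIF2 blocks eIF2B under stress. In myeloid cells these controls take part in setting how strongly cytokine and growth messages are translated. The arrays measured transcripts, not proteins or translation.

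Of the 40 members, 32 (80.0%) were lower in silncMDSC by any amount, beside 50.7% of all genes above the floor, and 8 were higher, beside 49.3%. The share of members lower was 67.5% with quantile normalization of the 2 arrays, beside 46.8% of all genes. Lower were 28 of 40 members with the level trend removed, beside 49.2%, and 28 of 40 with averaged probe sets, beside 51.1%. At least 1.2-fold lower were 12 of the 40 members, beside 10.6% of all genes, and 1 member was at least 1.2-fold higher, beside 6.96%. At the 1.5-fold threshold 1 member was lower, beside 1.42% of all genes, and 0 were higher, beside 0.948%. In bulk RNA, fewer cells of a type and less RNA per cell cannot be told apart. The differences were small, with a median of -0.12 over the members and -0.002 over all genes. They ran from -0.69 for Eif2b3 to 0.37 for Eif4ebp1, against a robust SD (scaled median absolute deviation) of 0.18 over all genes, which holds noise as well as differences. The 1.2-fold threshold fell within a run of close values, since Eif4a1 (-0.26) lay just past it, and Eif3a and Eif2b5 (-0.26 each) just short of it.

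**Figure D1:**
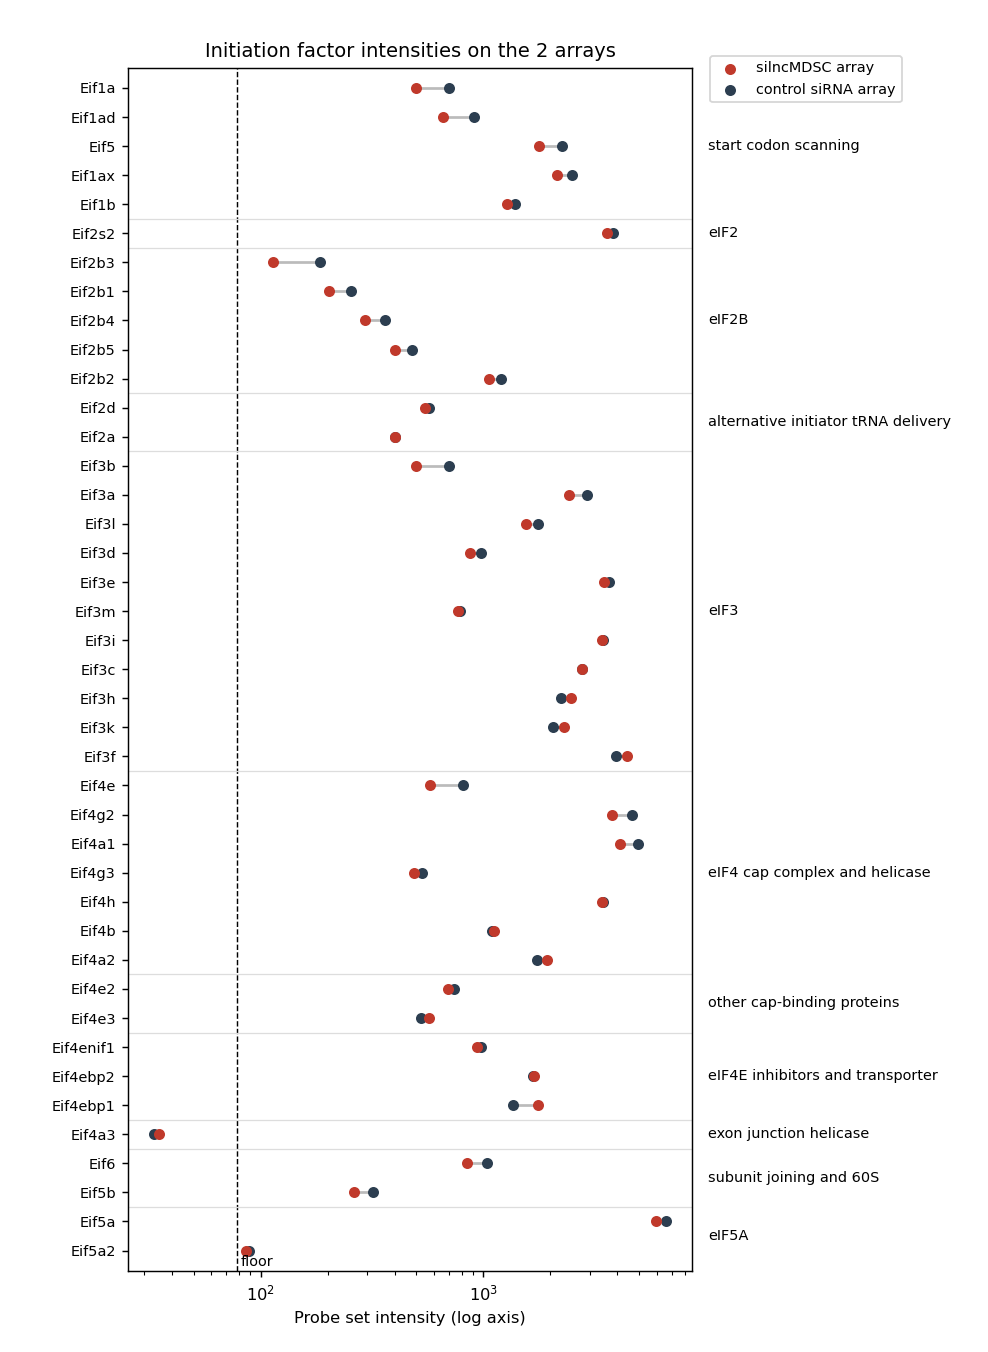
Probe set intensity (x axis, log scale) of each of the 41 initiation factors, grouped by complex, on the silncMDSC array (red) and the control siRNA array (dark blue), 1 array per group. The dashed line is the floor of 78.4. The red point lies left of the dark one in most rows, and Eif4ebp1 is the clearest row with the red point on the right.

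The 4 factors of start codon scanning and Eif1ad, a relative of eIF1A grouped with them, were all lower in silncMDSC, beside 50.7% of all genes. The median was -0.34 over the 5 and -0.28 without Eif1ad. Eif1a, an eIF1A gene whose product helps the small subunit scan and settle on the start codon, had an intensity of 498 in silncMDSC and 703 in control, a difference of -0.50. A second probe set gave -0.67, so both probe sets lay on the same side, although the brighter one has an identifier ending in _s_at and can also bind related transcripts. Eif1ax, the X-linked eIF1A gene, had 2139 in silncMDSC and 2499 in control (-0.22). The difference of Eif1a minus that of Eif1ax was -0.27. Eif1ad, the relative of eIF1A, had 662 in silncMDSC and 905 in control (-0.45, with -0.40 on its other probe set).

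Eif5, the GTPase activator that acts on eIF2 once the start codon is found, was read by 5 probe sets above the floor. Its brightest had 1778 in silncMDSC and 2243 in control, 1.26-fold lower. Another 3 gave differences between -0.51 and -0.40, and the dimmest, with 178 in silncMDSC and 174 in control, gave 0.04. Most of the readings of Eif5 were therefore farther below control than the one that counts here. Eif1b, a close relative of eIF1, had 1277 in silncMDSC and 1392 in control (-0.12).

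All 5 subunits of eIF2B, the exchange factor that returns eIF2 to its GTP-bound form, were lower in silncMDSC, beside 50.7% of all genes. Their median was -0.30. Eif2b3, the gamma subunit, was the member farthest below control. It had 114 in silncMDSC and 184 in control, 1.61-fold lower, and ranked 103 from the lowest of the 11920 genes. This rests on 1 probe set that is dim on both arrays. Eif2b1, the alpha subunit of the regulatory core that senses phosphorylated eIF2, had 203 in silncMDSC and 254 in control (-0.32). Eif2b4, the delta subunit of the same core, had 294 in silncMDSC and 363 in control (-0.30).

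The other eIF2B subunits were within 1.2-fold. Eif2b5, the catalytic epsilon subunit, had 402 in silncMDSC and 479.95 in control (-0.26). Eif2b2, the beta subunit, had 1064 in silncMDSC and 1202 in control (-0.18), and its other 2 probe sets gave -0.13 and 0.06. It was the 1 eIF2B subunit with more than 1 probe set above the floor, so the direction of the other 4 has no second reading. Of eIF2, the substrate of eIF2B, only 1 subunit was read, and it was closer to level. Eif2s2, the eIF2 beta subunit, had 3588 in silncMDSC and 3831 in control (-0.09), with its 6 probe sets between -0.09 and 0.06.

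A pair of factors that can deliver the initiator tRNA without eIF2 was nearly level. Eif2d had 547 in silncMDSC and 570.3 in control (-0.06), and its 4 probe sets above the floor lay between -0.06 and -0.02. Eif2a had 400.4 in silncMDSC and 402 in control (-0.01), while a second probe set gave 0.20. Neither reading of Eif2a reached 1.2-fold, and its first turned positive with the level trend removed or with quantile normalization.

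The eIF3 complex, the large scaffold that holds the small subunit, other factors and the mRNA, was split. Of its 11 subunits above the floor, 8 were lower, beside 50.7% of all genes, and 3 higher, beside 49.3%, with a median of -0.04. Only Eif3b was at least 1.2-fold apart, on the lower side, beside 10.6% of all genes. Eif3b, a core subunit with an RNA-recognition motif, had 496 in silncMDSC and 698 in control, 1.41-fold lower, on its 1 probe set. Eif3a, the largest subunit, which forms the core with Eif3b, had 2433 in silncMDSC and 2905 in control (-0.26). All 4 probe sets of Eif3a were lower, between -0.41 and -0.16.

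The eIF3 subunits above control were Eif3f, Eif3h and Eif3k, each with 1 probe set above the floor. Eif3f had 4419.7 in silncMDSC and 3944 in control (0.16), and Eif3h had 2463 in silncMDSC and 2238 in control (0.14). Eif3f and Eif3h belong to the same module of the complex. Eif3k, a small subunit at the edge of the complex, had 2300.0 in silncMDSC and 2065 in control (0.16). Eif3h turned to the other side when all its probe sets were averaged, those below the floor included. The difference of Eif3b minus that of Eif3f was -0.66.

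The remaining eIF3 subunits differed by less, and several had readings on both sides. Eif3l was lower (1552 in silncMDSC and 1757 in control, -0.18), as was Eif3d, a subunit that can itself bind the cap (873 in silncMDSC and 973 in control, -0.16), but each had another probe set above 0, at 0.02 and 0.22. Eif3e, Eif3m, Eif3i and Eif3c lay between -0.07 and -0.01. For Eif3c 3 of 4 probe sets were on the other side of 0, and for Eif3e 2 of 3, so no direction can be given for them. Eif3i, Eif3c and Eif3m turned positive with quantile normalization, Eif3i and Eif3c also with the level trend removed, and averaging all probe sets turned these 3 and also Eif3d and Eif3e.

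**Figure D2:**
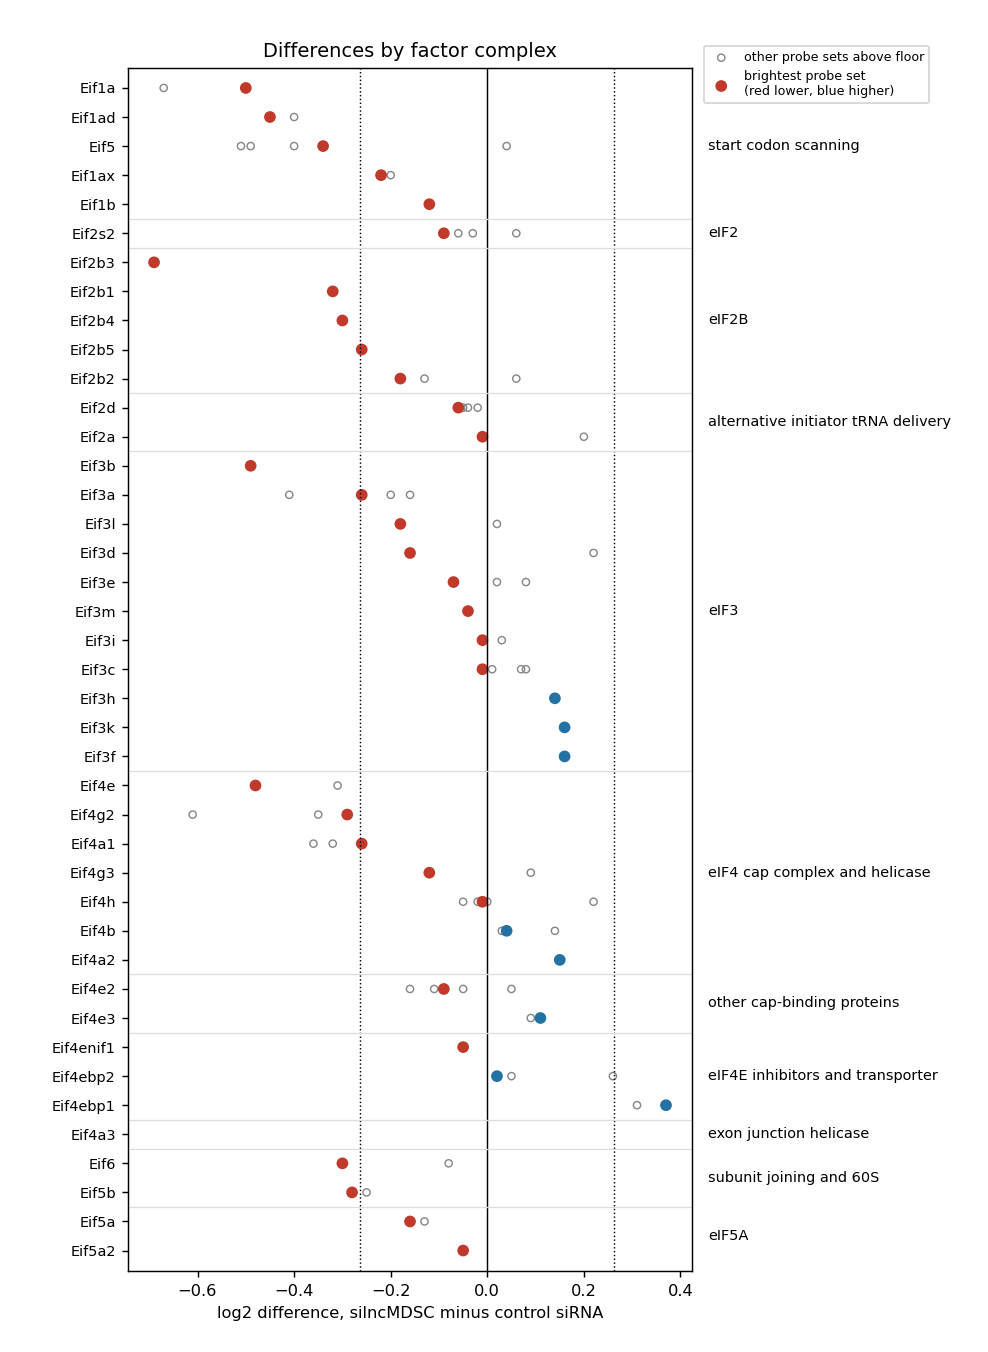
log2 difference in intensity, silncMDSC minus control siRNA (x axis), for each initiation factor above the floor, grouped by complex. Filled points are the brightest probe set of each gene (red lower, blue higher), open points its other probe sets above the floor, and dotted lines mark 1.2-fold. The filled points of the 5 eIF2B subunits, the 4 scanning factors and Eif1ad lie left of 0, whereas eIF3 spans both sides and Eif4ebp1 lies farthest right at 0.37.

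Among the eIF4 factors that recruit the mRNA, Eif4e, Eif4a1 and Eif4g2 were at least 1.2-fold lower in silncMDSC, and Eif4a2, Eif4b, Eif4g3 and Eif4h were within 1.2-fold. Eif4e, which binds the mRNA cap and is a main target of growth control, had 579 in silncMDSC and 809 in control, 1.40-fold lower. A second probe set gave 572 in silncMDSC and 708 in control (-0.31). The related cap-binding proteins did not share that size. Eif4e2, which represses bound mRNAs, had 696 in silncMDSC and 741 in control (-0.09, with its 5 probe sets between -0.16 and 0.05), and Eif4e3 had 568 in silncMDSC and 527 in control (0.11, with 0.09 on its other probe set). The difference of Eif4e minus that of Eif4e3 was -0.59.

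The helicases Eif4a1 and Eif4a2 had differences on opposite sides of 0, and that of Eif4a2 was within 1.2-fold. Eif4a1, the main eIF4A of growing cells, had 4127 in silncMDSC and 4954 in control (-0.26), and its other 2 probe sets gave -0.32 and -0.36. Its paralogue Eif4a2, which has also been linked to repression by microRNAs, had 1929 in silncMDSC and 1742 in control (0.15) on 1 probe set. The difference of Eif4a1 minus that of Eif4a2 was -0.41. The helicase cofactors were level, with Eif4b at 1122 in silncMDSC and 1094 in control (0.04) and Eif4h at 3416 in silncMDSC and 3445 in control (-0.01). Eif4h turned positive with quantile normalization or with the level trend removed, and its 5 probe sets above the floor lay between -0.05 and 0.22.

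Eif4g2, a scaffold that lacks the eIF4E-binding part and supports cap-independent translation, had 3777 in silncMDSC and 4631 in control (-0.29). The other 2 above the floor gave -0.35 and -0.61, so all 3 were past 1.2-fold on the same side. Eif4g3, a scaffold of the cap complex, had 489 in silncMDSC and 533 in control (-0.12), with 0.09 on a second, dimmer probe set.

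The inhibitor Eif4ebp1 went the other way from its target Eif4e. Eif4ebp1, the 4E-binding protein that competes with eIF4G for eIF4E, had 1755 in silncMDSC and 1357 in control, 1.29-fold higher. A second probe set had 1595 in silncMDSC and 1286 in control (0.31). Eif4ebp1 ranked 367 from the highest of the 11920 genes and was the only member at least 1.2-fold above control. Eif3m took that place when all probe sets of each gene were averaged, through a probe set far below the floor (7.22 in silncMDSC and 4.43 in control). Eif4ebp1 and Eif4e lay 0.85 apart on the log2 scale. Eif4ebp2 was level on its brightest probe set, with 1689 in silncMDSC and 1666 in control (0.02), and its other 2 gave 0.26 and 0.05. Eif4enif1, which carries eIF4E into the nucleus, had 939 in silncMDSC and 974 in control (-0.05).

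Factors of the late steps were lower as well. Eif5b, the GTPase that joins the large subunit, had 264 in silncMDSC and 319.6 in control (-0.28), with -0.25 on a second probe set. Eif6, which keeps free large subunits apart from small ones and takes part in their assembly, had 845 in silncMDSC and 1043 in control (-0.30), though its other probe set gave only -0.08. Eif5a, the hypusine-bearing factor that also helps elongation through difficult sequences, had 5933 in silncMDSC and 6606 in control (-0.16, with -0.13 on its other probe set). Its paralogue Eif5a2 differed by -0.05 just above the floor.

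Several probe sets of a gene give the only second reading on these arrays, and they share the RNA, so they are not replicates. The members held 115 probe sets, of which 92 were above the floor. Of these 92, 63 were lower by any amount, beside 51.7% of all probe sets with 1 symbol above the floor, and 29 were higher, beside 48.2%. At least 1.2-fold lower were 23, beside 11.2%, and 2 were at least 1.2-fold higher, beside 6.63%. At 1.5-fold 3 were lower, beside 1.46%, and 0 higher, beside 0.806%. Of 27 members with more than 1 probe set above the floor, 15 had all of them on the same side. No share over all genes was computed for that count. The 2 brightest were on the same side for 19 of the 27, beside 71.8% of 4845 genes, so members did not stand out. Of the 12 members at least 1.2-fold lower, 8 had more than 1, and 7 of these had all on the same side, with Eif5 the exception. These 8 were taken for a large difference, and no share over all genes was computed for such a choice. For the 2 brightest probe sets of a gene, the median gap between differences was 0.07 over these 27 members and 0.09 over 4845 genes. Members that differed by less than this cannot be given a direction here. A larger difference does not by itself give one, because the gap holds no variation between cultures or arrays. The 2 probe sets of Eif3d, for example, gave -0.16 and 0.22.

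The lower values were most common among members with dimmer probe sets. Of the 14 members with an intensity up to 718, 7 were at least 1.2-fold lower, with a median of -0.27, beside 10.7% and a median of 0.005 over all genes in that range. Between 718 and 2000 in intensity 3 of 13 were, beside 11.6%, and above it 2 of 13, beside 5.65%. The medians of these 2 brighter ranges were -0.12 and -0.07, with -0.037 and -0.027 over all genes of those ranges. Across the 40 members, level and difference had a Pearson r of 0.36, a description over genes that share the same 2 arrays.

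**Figure D3:**
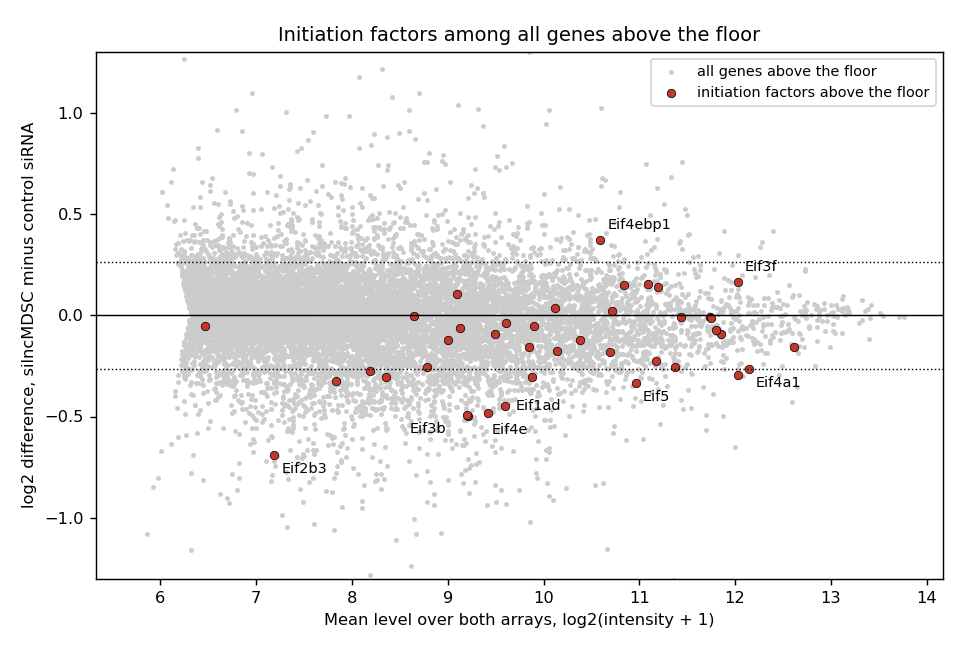
Mean level of a gene on the 2 arrays (x axis, log2(intensity + 1)) against its log2 difference, silncMDSC minus control (y axis), for 11920 genes in grey and the 40 initiation factors in red. Dotted lines mark 1.2-fold, 10 genes with a difference over 1.3 in size are not drawn, and most red points lie below 0.

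The other genes of translation did not all share this pattern. Partners of the cap and of the scanning ribosome had a median of -0.32 over 15 genes above the floor, with 9 at least 1.2-fold lower, beside 10.6% of all genes, and 1 higher, beside 6.96%. They included Abce1, which splits ribosomes for recycling (812 in silncMDSC and 1145 in control, -0.50), the eIF5 relatives Bzw2 (-0.49, but 0.26 on its other probe set) and Bzw1 (-0.47), and Ncbp2 of the nuclear cap-binding complex (-0.48). The 1 member higher by that fold was Paip2 (0.28), which keeps the poly(A)-binding protein from its partners. Pabpc1, the poly(A)-binding protein itself, had 7634 in silncMDSC and 8068 in control (-0.08), and its other probe set gave -1.01.

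Elongation and termination factors had a median of -0.07 over 13 genes, with 2 at least 1.2-fold lower, beside 10.6% of all genes, and 0 higher, beside 6.96%. The 2 were also past 1.5-fold, beside 1.42%, and were Eef1e1, a small scaffold of the synthetase complex (739.8 in silncMDSC and 1293 in control, -0.80), and the release factor Gspt1 (332 in silncMDSC and 522 in control, -0.65). The elongation factors proper were within 1.2-fold, from Eef1d at -0.18, with -0.34 and -0.06 on its other probe sets, to Eef1a2 at 0.19, with Eef1a1 and Eef1b2 at 0.05 and Eef2 at 0.07, while the release factor Etf1 (-0.26) and Dhps (-0.25), which starts the hypusine mark on eIF5A, were just short of 1.2-fold lower. Cytosolic aminoacyl-tRNA synthetases, which charge tRNAs, had a median of -0.04 over 19 genes, with 4 at least 1.2-fold lower (Farsb -0.37, Hars -0.33, Tars -0.27, Rars -0.27), beside 10.6% of all genes, and 0 higher, beside 6.96%.

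The regulators of eIF2 and eIF4E were mostly level. Of 12 eIF2 kinases and phosphatase regulators, 1 was at least 1.2-fold lower, beside 10.6% of all genes, and 0 higher, beside 6.96%, with a median of -0.02. That was Dnajc3, an inhibitor of eIF2 kinases (-0.34), and the stress kinases Eif2ak3 (0.22) and Eif2ak4 (0.16) were the farthest above 0. Of 14 genes of mTORC1 and MAPK input, with a median of 0.01, 1 was at least 1.2-fold lower and 1 higher, beside the same shares. Pdcd4, which binds eIF4A and blocks its helicase activity, had 948 in silncMDSC and 577 in control, 1.64-fold higher on 1 probe set. Larp1, which binds the start of mRNAs for ribosomal proteins, had 1156 in silncMDSC and 1604 in control (-0.47), whereas Mtor (0.07) and Rheb (-0.15) were within 1.2-fold. Of the inhibitors of eIF4E and eIF4A, drawn here from different lists, Eif4ebp1 and Pdcd4 were higher in silncMDSC by at least 1.2-fold. Eif4ebp2 was level (0.02), and Eif4e2 (-0.09), which represses bound mRNAs, and the eIF4E carrier Eif4enif1 (-0.05) were within 1.2-fold.

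MYC and nucleolar growth genes were farther below control than the initiation factors, with a median of -0.33 over 20 genes. Of these, 13 were at least 1.2-fold lower, beside 10.6% of all genes, and 2 at least 1.2-fold higher, beside 6.96%. At least 1.5-fold lower were 7, beside 1.42%. Myc, a transcription factor of cell growth, had 429.7 in silncMDSC and 741 in control (-0.78), and the nucleolar proteins Nolc1, Nop58 and Dkc1 and the spermidine synthase Srm lay between -1.11 and -0.92. Nop56 (-0.78) and Polr1a (-0.61) were the others past 1.5-fold. The 2 higher were the MYC antagonists Mxd4 (0.35) and Mxi1 (0.27). No test sets these lists against the initiation factors, and how far they share a cause was not tested.

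**Figure D4:**
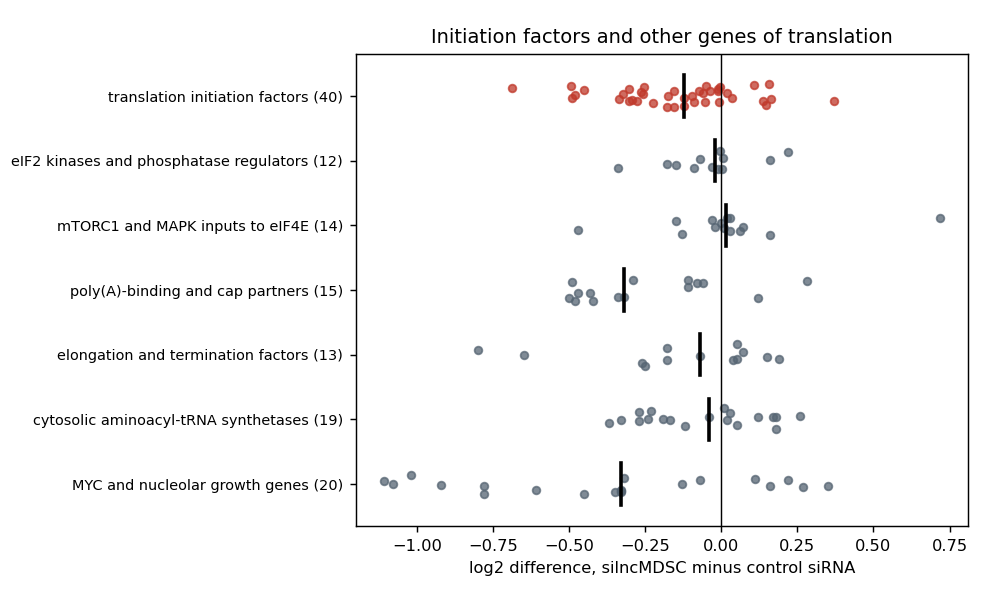
log2 difference, silncMDSC minus control siRNA (x axis), of each gene above the floor in the initiation factor family (red) and in 6 other lists (grey), with the number of genes in brackets. Black bars are medians, which run from -0.33 for MYC and nucleolar growth genes to 0.01 for mTORC1 and MAPK inputs, with -0.12 for initiation factors.

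Since MYC binds the E-box CACGTG, that motif was looked up in RefSeq promoter windows (build GRCm38.p6) of 250 bases before to 50 after each annotated start. The motif was chosen after the values were seen. It reads the same on both strands. Of the 31 members above the floor with a window, 9 (29.0%) held it. The share was 11.7% of all genes above the floor with a window and 8.09% of all genes with a window. Eif3a (-0.26), Eif5a (-0.16), Eif1b (-0.12) and Eif5a2 (-0.05) held it and are not shown. The rest are shown, each as 30 bases 5′ to 3′ with the motif in capitals.
Eif4e, chr3:138527192-138527221, plus strand: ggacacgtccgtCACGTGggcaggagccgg
Eif4a1, chr11:69672595-69672624, minus strand: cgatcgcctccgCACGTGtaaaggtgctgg
Eif3f, chr7:108934335-108934364, plus strand: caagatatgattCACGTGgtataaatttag
Eif3k, chr7:28981915-28981944, minus strand: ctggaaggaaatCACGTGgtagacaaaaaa
Eif4h, chr5:134639488-134639517, minus strand: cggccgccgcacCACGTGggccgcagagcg

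The motif began 64 bases before an annotated start of Eif4e and 189 before that of Eif4a1, both lower in silncMDSC (-0.48 and -0.26). It began 68 bases before the start of Eif3f and 44 before that of Eif3k, both higher (0.16 each), and 96 before that of Eif4h, which was level (-0.01). The 9 members with the motif had a median of -0.12, and the 22 without it -0.14, with 2 and 6 at least 1.2-fold lower, beside 10.6% of all genes. Lower by any amount were 7 of the 9 and 19 of the 22, beside 50.7%. A match is a description of the letters in the window, not of a bound site.

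Markers of other cells also differed between the cultures. Of 9 macrophage markers, 9 were lower by any amount, beside 50.7% of all genes, and 4 at least 1.5-fold lower, beside 1.42%. Adgre1 (3068 in silncMDSC and 3070 in control) and C1qa (-0.03) were level. Intensities summed over the list, dim members included, were 11459 in silncMDSC and 14140 in control. Of 9 dendritic cell markers, 9 were higher by any amount, beside 49.3%, and 4 at least 1.5-fold higher, beside 0.948% (sums of 22472 in silncMDSC and 16566 in control). Of the eosinophil list, 3 of 5 eosinophil markers were above the floor, all 3 at least 1.2-fold higher, beside 6.96% (sums over the 5 of 3913 in silncMDSC and 2745 in control). Monocyte markers were mixed, with sums of 11277 in silncMDSC and 10887 in control. Of 8, 2 were at least 1.2-fold higher, Ccr2 (0.34) and Cx3cr1 (0.37), beside 6.96% of all genes. Vcan was the 1 at least 1.5-fold lower, beside 1.42%, with 282 in silncMDSC and 567 in control (-1.01, while 2 dimmer probe sets gave -0.92 and -0.65). Of the neutrophil and MDSC genes, 10 of 10 were above the floor, beside 11920 of 18193 genes. That list cannot tell MDSCs from other neutrophils. Its sums were 60062 in silncMDSC and 61480 in control, with a median of -0.08 over 10 genes. Only Cxcr2 (0.44) was at least 1.2-fold apart, on the higher side, beside 6.96%. Ly6g, Retnlg and the monocyte gene Ly6c2 were not analysed here. Proliferation markers had a median of -0.07 over 11 genes, with 0 at least 1.2-fold lower, beside 10.6% of all genes, and 0 higher, beside 6.96%. T, B and NK cell markers (5 of 7 above the floor) summed over the 7 to 980.0 in silncMDSC and 970.0 in control. Of 4 erythroid markers only Epor was above the floor, with 163 in silncMDSC and 159 in control. No marker of any of these lists was at the lowest value of an array. The part of these markers in the initiation factor values was not tested. RNA integrity, read as 3′ minus 5′ probe sets on the log2 scale, gave 0.64 in silncMDSC and 0.57 in control for beta-actin, and 0.07 in silncMDSC and 0.05 in control for Gapdh. Its part was not tested.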

How the data were processed

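The authors deposited 1 table of probe set intensity on a linear scale, from 2 Affymetrix arrays made with 6 µg of total RNA each. The submitters' processing notes name RMA, and its version and the step back from log2 values are not given in the sources used here. Median intensities were 79.0 in silncMDSC and 77.9 in control, and the number of arrays limits the precision. Of 45037 probe sets without controls, 34945 had 1 gene symbol, and only these were used. Where a gene had several probe sets, the one brightest on average stood for it, and 1 was added before log2. All 41 member symbols matched RefSeq by Entrez identifier, and 6 probe sets that name a member beside another gene were left out. The methods name limma, but 1 array per group leaves nothing to test with, so counts past 1.2-fold and 1.5-fold are given beside the share over all genes. The complexes, lists and members were chosen with earlier results of these data known. Named genes were members at least 1.2-fold apart, the extremes of each complex, paralogues, and up to 4 genes of each other list with the largest differences plus any past 1.5-fold. Further genes of those lists were chosen after their values were seen. Alternatives changed the centring, level trend (loess, span 0.3), normalization, pseudocount (16), floor, probe set rule and membership. Calculations used Python with numpy, pandas and statsmodels and were checked on simulated data.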

Additional observations from a re-analysis of the deposited data

How the results depend on the processing

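No paired analysis was possible because each group has 1 array. The family median lay between -0.12 and -0.08 under every alternative. Members lower by any amount numbered 27 to 32 of 35 to 41, a share of 67.5% to 82.9%, beside 46.8% to 55.0% of all genes. Quantile normalization gave 27 of 40 members lower, beside 46.8% of all genes, and 8 at least 1.2-fold lower, beside 9.02%. Eif2a, Eif3c, Eif3i and Eif4h, each at -0.01, turned to the other side under both quantile normalization and the loess trend, and Eif3m under quantile normalization. Eif3c and Eif4h also turned without probe sets ending in _x_at or _s_at. With the mean of all probe sets, 6 eIF3 subunits (Eif3c, Eif3d, Eif3e, Eif3h, Eif3i and Eif3m) changed side and Eif3m, not Eif4ebp1, was the 1 member past 1.2-fold above control. That mean includes probe sets below the floor, and the Eif3m value rests on 1 of them (0.60), beside -0.04 on its probe set above the floor. The count of members at least 1.5-fold lower was 0 with the floor at the 75th percentile, which removes Eif2b3, and 2 without probe sets ending in _x_at or _s_at, which adds Eif1a. The count at least 1.2-fold higher was 0 without the regulators, which removes Eif4ebp1. The other 142 of 145 values for the family, its complexes and its probe sets stayed within 0.1 on the log2 scale or 1.5 times the count, as did 48 of 48 list medians. That tolerance is wide beside a family median of -0.12 and lets small medians change sign. The eIF3 median went from -0.04 to 0.01 with quantile normalization or averaged probe sets. The median for alternative delivery of the initiator tRNA went from -0.03 to 0.002 with quantile normalization.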
